A study of Mus musculus with 15 samples.

Results

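Glutathione S-transferase genes, 9 of the 19938 genes measured, were followed across the livers of 15 mice. They comprised 2 genes of the alpha class (Gsta3 and Gsta4), 4 of the mu class (Gstm1, Gstm2, Gstm3 and Gstm4), 1 of the pi class (Gstp1) and 2 of the theta class (Gstt1 and Gstt2). Each gene was taken from the array probe sets that carry its symbol and no other, and the probe set with the highest mean over the 15 arrays stood for the gene. All 9 genes were measured, and 9 of 9 lay above a level of 3.69 in at least 3 arrays. RNA of whole liver had been hybridised to Affymetrix arrays that probe whole transcripts, 1 for each mouse, and the 5 groups held 3 mice each. NEMO/Jnk1 DKO mice lacked Jnk1 in all cells and NEMO in hepatocytes, and Jnk1 KO mice lacked Jnk1 alone. NEMO/Jnk2 DKO mice lacked Jnk2 in all cells and NEMO in hepatocytes, and Jnk2 KO mice lacked Jnk2 alone. WT mice carried a loxP-flanked NEMO gene that had not been recombined. All were C57BL/6 mice aged 8 weeks and labelled male. The Jnk1 and Jnk2 alleles were constitutive knockouts. NEMO was deleted with Cre under the albumin promoter, so cells of the liver other than hepatocytes keep it. No group here lacked NEMO alone, so its loss was read against Jnk-null livers or against WT.

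Glutathione S-transferases join the tripeptide glutathione to reactive, electrophilic molecules, among them drug metabolites and the aldehydes that arise when lipids are oxidised. The conjugates are then pumped out of the cell and excreted. Hepatocytes are among the richest sources of these enzymes, and in mouse liver many of the alpha and mu genes are induced by NRF2, the product of Nfe2l2, which binds antioxidant response elements when cells meet oxidative or electrophilic stress. NEMO holds together the IkB kinase complex, through which NF-kB is switched on, and JNK1 and JNK2 are stress-activated kinases that phosphorylate c-Jun, a subunit of the AP-1 transcription factor. The Gstp1 protein is also known to bind JNK and to restrain it.

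The sequence before the start of transcription is shown for 4 genes that were called between a double knockout and WT. Gstm3 was called higher in both double knockouts, Gstm2 higher and Gstp1 lower in NEMO/Jnk1 DKO livers, and Gsta3 lower in NEMO/Jnk2 DKO livers. These calls came from a fit without 2 doubted arrays, described below. With all arrays as labelled, none of the 9 genes was called. The sequences are those of RefSeq on the GRCm38.p6 build, which held a promoter window for 7 of the 9 genes and none for Gsta4 and Gstt2. Each run gives the 250 bases before the annotated start, 5′ to 3′ on the strand of the gene. The runs lie at chr3:107969175-107969424 (minus strand) for Gstm3, chr3:107986421-107986670 (minus strand) for Gstm2, chr19:4037913-4038162 (minus strand) for Gstp1 and chr1:21240335-21240584 (plus strand) for Gsta3. Capitals mark each match, on either strand, to the antioxidant response element core TGACNNNGC, to the AP-1 site TGANTCA or to the NF-kB site, here GGG and CC with any 5 bases between them.
Gstm3: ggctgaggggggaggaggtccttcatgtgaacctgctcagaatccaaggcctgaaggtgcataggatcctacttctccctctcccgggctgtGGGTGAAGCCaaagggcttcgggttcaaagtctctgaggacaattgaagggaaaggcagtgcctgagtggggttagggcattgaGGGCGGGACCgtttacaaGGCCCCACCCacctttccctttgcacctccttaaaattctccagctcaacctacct
Gstm2: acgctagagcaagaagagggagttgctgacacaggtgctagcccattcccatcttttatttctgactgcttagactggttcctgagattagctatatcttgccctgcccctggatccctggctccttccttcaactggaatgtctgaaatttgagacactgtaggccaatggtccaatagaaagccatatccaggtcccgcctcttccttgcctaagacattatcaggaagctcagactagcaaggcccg
Gstp1: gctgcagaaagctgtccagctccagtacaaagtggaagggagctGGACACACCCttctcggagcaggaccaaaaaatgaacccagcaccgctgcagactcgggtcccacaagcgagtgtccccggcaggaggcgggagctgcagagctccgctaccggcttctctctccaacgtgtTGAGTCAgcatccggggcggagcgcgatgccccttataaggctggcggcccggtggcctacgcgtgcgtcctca
Gsta3: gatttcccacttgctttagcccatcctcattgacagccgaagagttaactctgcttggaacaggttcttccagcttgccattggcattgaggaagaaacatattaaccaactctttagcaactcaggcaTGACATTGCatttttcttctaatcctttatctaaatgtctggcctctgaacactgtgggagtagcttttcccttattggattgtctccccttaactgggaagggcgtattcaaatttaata
Over all 32851 promoter windows of 300 bases, 12.4% held the response element core, 7.81% the AP-1 site and 50.8% the NF-kB site. Among the 7 genes with a window, 1 (Gsta3) held the response element core, 1 (Gstp1) the AP-1 site and 5 the NF-kB site. These count genes with a match in any window, and Gstm1 and Gstm4 have 2 windows each. The percentages count windows, so the 2 are not alike. The core in Gsta3 begins at position -121 from the start, and in Gstp1 the AP-1 site begins at -74 and an NF-kB match at -206. Gstm3 had 3 matches to the NF-kB site, which do not overlap one another, and Gstm2 had no match to any of the 3 motifs. A match to such short letters is a description of the sequence, and a window without one says only that these letters are not in it.

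Before the genes are described, some arrays need a remark. The targeted genes were read first. Mapk9, the Jnk2 gene, lay at 2.39 to 3.28 in Jnk2-null livers and 7.41 to 7.67 in all others, and Mapk8, the Jnk1 gene, at 5.87 to 6.53 in Jnk1-null livers and 6.58 to 7.03 in all others. Ikbkg, the NEMO gene, lay at 6.18 to 6.85 in the 6 double knockouts, but 2 arrays labelled NEMO-intact were low as well. Jnk1 KO replicate 1 had 6.75 and Jnk2 KO replicate 3 had 6.24, whereas the remaining 7 had 7.03 to 7.41. The same 2 arrays had Ly6d, a surface protein gene, at 10.12 and 9.70, while double knockouts had 7.88 to 10.48 and the remaining 7 had 4.67 to 5.35. These are called the 2 doubted arrays, and the main results are given with and without them. They were set aside for the pattern that separates the double knockouts from the rest, so a call made without them is not independent evidence of that pattern. Xist was high in 3 arrays, NEMO/Jnk1 DKO replicate 1, NEMO/Jnk1 DKO replicate 2 and Jnk1 KO replicate 1 (8.68 to 9.17, against at most 2.82 in the other 12), and their 3 measured Y-linked genes were low, a female pattern in mice labelled male. The 8 measured hepatocyte markers averaged 12.14 to 12.21 in NEMO/Jnk2 DKO, the lowest of the groups, and 12.32 to 12.47 in WT. They averaged 12.26 to 12.36 in NEMO/Jnk1 DKO, 12.30 to 12.33 in Jnk1 KO and 12.22 to 12.45 in Jnk2 KO. Values below are log2 expression levels, errors of group means are SD, and errors of differences are the standard errors (SE) of limma fits to all groups. A gene is called where its Benjamini-Hochberg adjusted p over all 19938 genes is under 0.05. Levels of different genes come from different probe sets and are not set against each other. In whole liver, fewer cells of a type and less RNA per cell cannot be told apart.

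With all arrays taken as labelled, 0 of the 9 genes were called in any comparison. At most 4 had an unadjusted p under 0.05, between NEMO/Jnk1 DKO and WT, where 3256 of all 19938 genes did. Over all genes, limma then called 0.0652% between NEMO/Jnk1 DKO and WT, 2.63% between NEMO/Jnk2 DKO and WT, 0% between NEMO/Jnk1 DKO and Jnk1 KO (908 genes at an unadjusted p under 0.05), and 0.00502% between NEMO/Jnk2 DKO and Jnk2 KO. Without the 2 doubted arrays, Gstm3 was called higher in both double knockouts, against both the matching single knockout and WT. Gstm2 rose and Gstp1 fell in NEMO/Jnk1 DKO livers against both, Gstm1 rose in NEMO/Jnk2 DKO livers against Jnk2 KO, and Gsta3 fell in NEMO/Jnk2 DKO livers against WT. Gsta4, Gstm4, Gstt1 and Gstt2 were called in none of these. Neither double knockout nor WT holds a doubted array, so the differences between them are the same in both fits, and the calls change with the estimated spread and the adjustment over all genes.

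**Figure D1:**
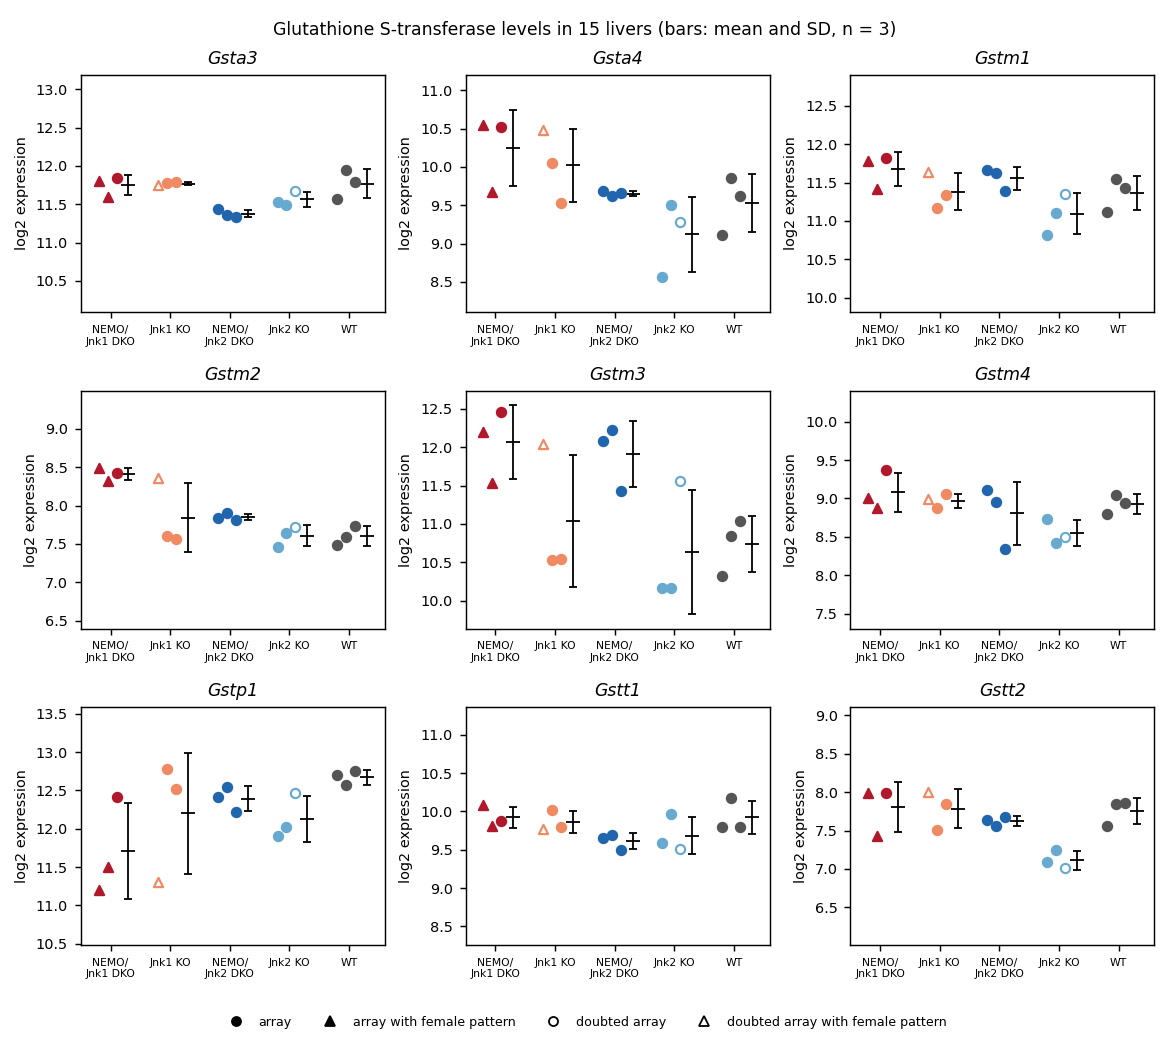
Log2 expression of the 9 glutathione S-transferase genes in each of the 15 livers, 1 panel per gene and 1 point per array, with the mean and SD of each group (n = 3). Open points are the 2 doubted arrays and triangles the arrays with the female pattern. Gstm3 lies at 11.42 to 12.46 in the 6 double knockouts and at 10.33 to 11.03 in WT, and Gstp1 is lowest in the 3 arrays with the female pattern.

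Gstm3, of the mu class, had the largest difference from WT of the 9 genes in both double knockouts. It read 12.20, 11.53 and 12.46 in NEMO/Jnk1 DKO, against 12.04, 10.53 and 10.55 in Jnk1 KO. In NEMO/Jnk2 DKO it read 12.09, 12.23 and 11.42, against 10.16, 10.16 and 11.56 in Jnk2 KO, and in WT it read 10.33, 10.84 and 11.03. All 6 double knockouts thus lay above all 3 WT livers, and within each single knockout the high value was that of the doubted array. As a share of all genes, 25.5% did not overlap between NEMO/Jnk1 DKO and WT, and 27.8% between NEMO/Jnk2 DKO and WT. Against WT the difference was 1.33 (SE 0.44, limma adjusted p = 0.166) for NEMO/Jnk1 DKO, a 2.52-fold higher level, and 1.18 (SE 0.44, adjusted p = 0.162) for NEMO/Jnk2 DKO, 2.26-fold higher. With the doubted arrays left out, the same differences had an SE of 0.25 and adjusted p-values of 0.00502 and 0.00775. In that fit NEMO/Jnk1 DKO stood 1.53 above Jnk1 KO (SE 0.28, adjusted p = 0.00563; as labelled 1.03, SE 0.44, adjusted p = 0.962), or 2.88-fold. NEMO/Jnk2 DKO stood 1.75 above Jnk2 KO (SE 0.28, adjusted p = 0.00267; as labelled 1.28, SE 0.44, adjusted p = 0.556), or 3.36-fold. Between the 2 double knockouts, NEMO/Jnk1 DKO less NEMO/Jnk2 DKO, Gstm3 differed by 0.15 (SE 0.25, adjusted p = 0.983).

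A second probe set carries the Gstm3 symbol alone. It read 11.77, 10.99 and 12.00 in NEMO/Jnk1 DKO livers, 11.58, 11.83 and 10.92 in NEMO/Jnk2 DKO, and 9.54, 9.86 and 10.09 in WT. The single knockouts read 11.57, 9.54 and 9.30 (Jnk1 KO) and 9.06, 9.03 and 10.94 (Jnk2 KO), again with the doubted array as the high one of each. In a limma fit over the 23410 probe sets with a symbol and without the doubted arrays, its differences were 1.76 (SE 0.26, adjusted p = 0.00149) for NEMO/Jnk1 DKO less WT and 1.62 (SE 0.26, adjusted p = 0.00167) for NEMO/Jnk2 DKO less WT, against adjusted p-values of 0.168 and 0.149 as labelled. Both probe sets of Gstm3 therefore had the same direction. Mu-class genes have closely related sequences, so signal shared between them cannot be separated here.

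Gstm2, another mu-class enzyme, was high in NEMO/Jnk1 DKO livers and less so in NEMO/Jnk2 DKO. Its levels were 8.49, 8.32 and 8.42 in NEMO/Jnk1 DKO, against 8.36, 7.61 and 7.57 in Jnk1 KO. NEMO/Jnk2 DKO livers read 7.84, 7.90 and 7.82, against 7.45, 7.64 and 7.72 in Jnk2 KO, and WT livers 7.49, 7.59 and 7.74. The 3 NEMO/Jnk1 DKO livers did not overlap with NEMO/Jnk2 DKO or WT, and the 8.36 among the Jnk1 KO is the doubted array. Of all genes, 12.6% and 25.5% did not overlap in these 2 comparisons. Against WT, Gstm2 was 0.81 higher in NEMO/Jnk1 DKO (SE 0.17, limma adjusted p = 0.0811; without the doubted arrays SE 0.09, adjusted p = 0.000273), and against Jnk1 KO it was 0.83 higher without the doubted arrays (SE 0.10, adjusted p = 0.000564; as labelled 0.57, SE 0.17, adjusted p = 0.962). Leaving out Jnk1 KO replicate 1 alone was enough for both calls (adjusted p = 0.00147 against WT and 0.00446 against Jnk1 KO). For NEMO/Jnk2 DKO the differences without both arrays were 0.25 from WT (SE 0.09, adjusted p = 0.116) and 0.30 from Jnk2 KO (SE 0.10, adjusted p = 0.116), which were not called. Set directly against each other, NEMO/Jnk1 DKO stood 0.56 above NEMO/Jnk2 DKO (SE 0.09, adjusted p = 0.0201 without the doubted arrays, 0.482 as labelled). In 2 of the 3 NEMO/Jnk1 DKO livers the female pattern was present, and the one without it, replicate 3, read 8.42. With the arrays of female pattern left out as well as the doubted ones, NEMO/Jnk1 DKO stood 0.57 above NEMO/Jnk2 DKO (SE 0.14, adjusted p = 0.317), which was no longer called. Of 29 alternatives 2 made the call, both without Jnk1 KO replicate 1. The difference of the NEMO effects on the 2 Jnk backgrounds was 0.52 for Gstm2 without the doubted arrays (SE 0.15, adjusted p = 0.386) and 0.32 as labelled (SE 0.23, adjusted p = 0.9996), and was not called.

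Gstm1, the mu-class enzyme whose level followed Gstm3 most closely, moved less. It read 11.79, 11.42 and 11.82 in NEMO/Jnk1 DKO, against 11.64, 11.17 and 11.33 in Jnk1 KO. NEMO/Jnk2 DKO livers read 11.66, 11.63 and 11.38, against 10.82, 11.11 and 11.35 in Jnk2 KO, and WT livers 11.12, 11.54 and 11.44. The NEMO/Jnk2 DKO livers lay above all 3 Jnk2 KO livers, where 11.7% of all genes did not overlap, and overlapped with WT. Gstm1 was called between NEMO/Jnk2 DKO and Jnk2 KO without the doubted arrays (0.60, SE 0.16, adjusted p = 0.0447), against 0.47 as labelled (SE 0.17, adjusted p = 0.563). Gstm4 averaged 9.08 ± 0.25 in NEMO/Jnk1 DKO and 8.97 ± 0.09 in Jnk1 KO, 8.81 ± 0.41 in NEMO/Jnk2 DKO and 8.55 ± 0.17 in Jnk2 KO, and 8.93 ± 0.13 in WT (SD, n = 3 each). In the comparisons fitted it differed by no more than 0.42, and it was called in none of them, as labelled or without the doubted arrays.

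Macrophage and stellate cell markers moved with Gstm3. The 10 macrophage markers averaged 7.74 to 8.14 in NEMO/Jnk1 DKO, 7.56 to 8.11 in NEMO/Jnk2 DKO, and 6.15 to 6.62 in WT. The 2 doubted arrays stood at 7.93 (Jnk1 KO replicate 1) and 7.77 (Jnk2 KO replicate 3), and the other single knockouts at 6.44 to 6.63. The 10 stellate and myofibroblast markers averaged 6.86 to 7.04 in the double knockouts, 7.28 and 7.48 in the doubted arrays, 5.58 to 5.89 in the other single knockouts and 5.90 to 6.01 in WT. Between double knockouts and WT without the doubted arrays, 7 of 10 macrophage markers were called higher for NEMO/Jnk1 DKO and 8 of 10 for NEMO/Jnk2 DKO, with 6 of 10 stellate markers in each. Of all genes, 7.91% and 10.6% were called in these 2 comparisons. No marker of either list lay under 3.69 in all arrays. Their part in the Gstm3 result was not tested.

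**Figure D2:**
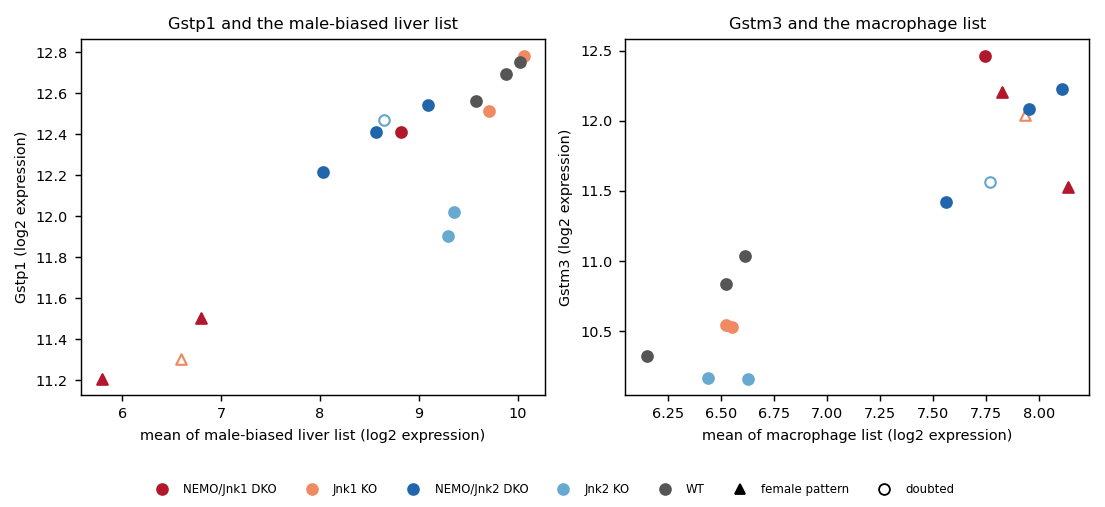
Left, Gstp1 against the mean of 13 genes known to be higher in male than in female mouse liver. Right, Gstm3 against the mean of 10 macrophage markers. Both axes are log2 expression and each point is 1 of the 15 arrays, coloured by group. The 3 arrays with the female pattern (triangles) hold the lowest Gstp1, at 11.21 to 11.50, and the double knockouts and doubted arrays hold both the highest macrophage level and the highest Gstm3.

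Gstp1, the pi-class enzyme, ran the other way. It read 11.21, 11.50 and 12.41 in NEMO/Jnk1 DKO, against 11.30, 12.78 and 12.52 in Jnk1 KO. NEMO/Jnk2 DKO livers read 12.41, 12.54 and 12.22, against 11.90, 12.02 and 12.47 in Jnk2 KO, and in WT 12.69, 12.56 and 12.75. Every NEMO/Jnk1 DKO, NEMO/Jnk2 DKO and Jnk2 KO liver lay below every WT liver. In these comparisons with WT, in that order, 25.5%, 27.8% and 17.0% of all genes did not overlap. NEMO/Jnk1 DKO was 0.96 below WT (difference -0.96, SE 0.34, limma adjusted p = 0.189), a 1.95-fold lower level, and without the doubted arrays the adjusted p was 0.0195 (SE 0.23). Leaving out Jnk1 KO replicate 1 alone gave 0.0412. Against Jnk1 KO, without both doubted arrays, it differed by -0.94 (SE 0.25, adjusted p = 0.0488; as labelled -0.49, SE 0.34, adjusted p = 0.962). Between NEMO/Jnk2 DKO and Jnk2 KO the difference had the opposite sign, 0.43 (SE 0.25, adjusted p = 0.433; as labelled 0.26, SE 0.34, adjusted p = 0.899). The difference of the 2 NEMO effects was -1.37 (SE 0.36, adjusted p = 0.341) without the doubted arrays and -0.75 as labelled (SE 0.48, adjusted p = 0.9996), and was not called.

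The low Gstp1 values were those of the 3 arrays with the female pattern, at 11.21, 11.50 and 11.30, against 11.90 to 12.78 in the other 12. Gstp1 is known to be higher in male than in female mouse liver. The 13 other genes with that known bias averaged 5.79, 6.80 and 8.82 in NEMO/Jnk1 DKO livers, 6.59 in Jnk1 KO replicate 1, and 8.03 to 10.06 in the other 11 arrays. Their part in the Gstp1 result beyond the fit below was not tested. Without the doubted arrays, 10 of the 13 were called lower in NEMO/Jnk1 DKO than in WT, and 5 of 13 in NEMO/Jnk2 DKO than in WT. Of all genes, 7.91% and 10.6% were called in these 2 comparisons. With the arrays of female pattern left out as well, the NEMO/Jnk1 DKO group is replicate 3 alone, assumed to vary like the other groups. Gstp1 then differed from WT by -0.26 (SE 0.16, adjusted p = 0.608) and was no longer called, while Gstm3 stood at 1.73 (SE 0.30, adjusted p = 0.0211) and Gstm2 at 0.82 (SE 0.14, adjusted p = 0.0189). In the same fit Gstp1 was called lower in Jnk2 KO than in WT (-0.71, SE 0.13, adjusted p = 0.0275).

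Gsta3, of the alpha class, varied little within groups, with SDs of 0.02 to 0.19. It read 11.81, 11.60 and 11.84 in NEMO/Jnk1 DKO, against 11.75, 11.77 and 11.79 in Jnk1 KO. NEMO/Jnk2 DKO livers had 11.43, 11.37 and 11.34, against 11.53, 11.49 and 11.67 in Jnk2 KO, and in WT 11.57, 11.94 and 11.79. The NEMO/Jnk2 DKO livers were the lowest 3 of the 15. As a share of all genes, 27.8% did not overlap between NEMO/Jnk2 DKO and WT, and 11.7% between NEMO/Jnk2 DKO and Jnk2 KO. Against WT the difference was -0.39 (SE 0.10, limma adjusted p = 0.0591 as labelled and 0.0296 without the doubted arrays), a 1.31-fold lower level. The call was also made on leaving out any 1 of Jnk1 KO replicate 1, Jnk2 KO replicate 3 or WT replicate 1 (adjusted p = 0.04, 0.0473 and 0.0483). Against Jnk2 KO it was -0.18 as labelled (SE 0.10, adjusted p = 0.678) and -0.13 without the doubted arrays (SE 0.12, adjusted p = 0.659), and was not called. The 10 measured markers of pericentral hepatocytes, those around the central vein, averaged 8.55 to 8.72 in NEMO/Jnk2 DKO and 8.71 to 9.19 in the other 12 arrays. The 8 measured general hepatocyte markers were also lowest in NEMO/Jnk2 DKO, at 12.14 to 12.21, against 12.32 to 12.47 in WT. The part of either list in the Gsta3 result was not tested. Between NEMO/Jnk1 DKO and WT Gsta3 overlapped, and differed by -0.02 (SE 0.10, adjusted p = 0.953 without the doubted arrays).

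Gsta4, the alpha-class enzyme known for its high activity towards the lipid aldehyde hydroxynonenal, varied widely among mice of most groups. It read 10.55, 9.67 and 10.52 in NEMO/Jnk1 DKO, 10.48, 10.05 and 9.54 in Jnk1 KO, 9.69, 9.62 and 9.65 in NEMO/Jnk2 DKO, 8.57, 9.51 and 9.28 in Jnk2 KO, and 9.11, 9.86 and 9.62 in WT. The spread was small in NEMO/Jnk2 DKO (SD 0.03) and 0.38 to 0.50 in the other groups. Against WT it differed by 0.71 in NEMO/Jnk1 DKO without the doubted arrays (SE 0.27, adjusted p = 0.145; as labelled SE 0.30, adjusted p = 0.252), which was not called. Gstt1, a theta-class enzyme, averaged 9.92 ± 0.14 in NEMO/Jnk1 DKO, 9.86 ± 0.14 in Jnk1 KO, 9.61 ± 0.10 in NEMO/Jnk2 DKO, 9.69 ± 0.24 in Jnk2 KO and 9.92 ± 0.22 in WT (SD, n = 3 each). It was called nowhere, and its largest difference was -0.31 between NEMO/Jnk2 DKO and WT (SE 0.14, adjusted p = 0.242).

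Gstt2, also of the theta class, was lowest in Jnk2 KO. It read 7.08, 7.25 and 7.01 there, against 7.56, 7.84 and 7.87 in WT. The 2 groups thus did not overlap, which held for 17.0% of all genes. NEMO/Jnk2 DKO livers read 7.64, 7.55 and 7.68, NEMO/Jnk1 DKO livers 7.99, 7.43 and 7.99, and Jnk1 KO livers 8.00, 7.51 and 7.84. Jnk2 KO differed from WT by -0.64 (SE 0.16, limma adjusted p = 0.102), and by -0.59 without the doubted arrays (SE 0.17, adjusted p = 0.118). Neither was called, and without the 3 arrays of female pattern the adjusted p was 0.0422. NEMO/Jnk2 DKO stood above Jnk2 KO by 0.51 (SE 0.16, adjusted p = 0.553), which was not called either.

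**Figure D3:**
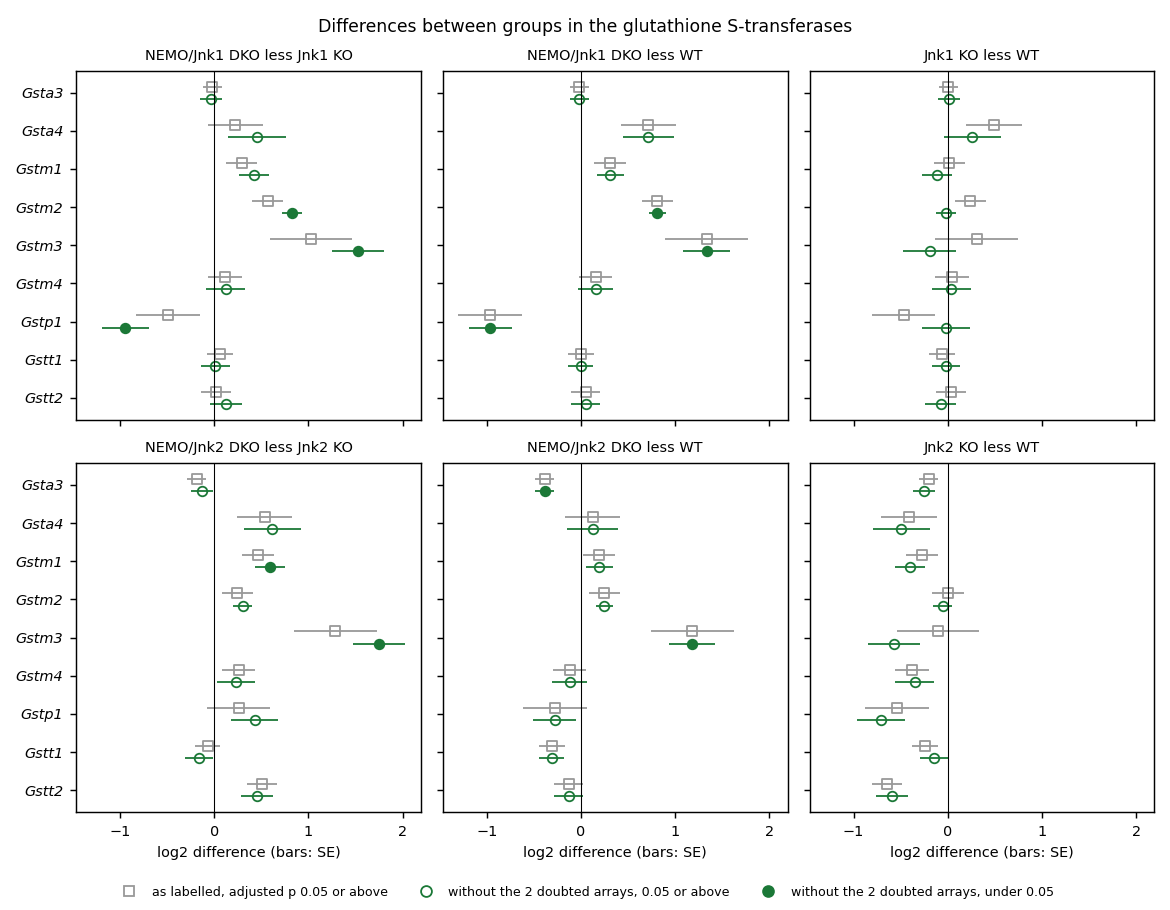
Log2 differences between groups for the 9 genes with their SE, in 6 comparisons named above the panels. Grey squares are all arrays as labelled, and green circles the fit without the 2 doubted arrays, filled where the adjusted p is under 0.05. Gstm3 is filled in all 4 panels that hold a double knockout, Gstm2 and Gstp1 in the 2 of NEMO/Jnk1 DKO, and no gene in the 2 panels of single knockouts less WT.

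The counts were read against those of all genes. Without the doubted arrays, 2 of the 9 genes were called higher and 1 lower between NEMO/Jnk1 DKO and WT, where 7.91% of all genes were called, and the same numbers held against Jnk1 KO, where 5.18% were called. Between NEMO/Jnk2 DKO and WT 1 was called higher and 1 lower, with 10.6% of all genes called, and against Jnk2 KO 2 higher and 0 lower, with 5.85%. The median difference of the 9 genes was 0.16 for NEMO/Jnk1 DKO less WT and -0.12 for NEMO/Jnk2 DKO less WT, beside -0.04 over all genes in both. Against the single knockouts the medians were 0.12 for NEMO/Jnk1 DKO and 0.43 for NEMO/Jnk2 DKO, beside -0.01 over all genes in both. The comparisons with WT share the 3 WT arrays. Without the doubted arrays, groups did not overlap for 4 of the 9 genes (3 higher, 1 lower) between NEMO/Jnk1 DKO and Jnk1 KO, beside 30.7% of all genes, and for 7 (6 higher, 1 lower) between NEMO/Jnk2 DKO and Jnk2 KO, beside 33.2%. As labelled these were 0 genes (6.69% of all genes) and 5 genes (4 higher, 1 lower, 11.7%). Groups did not overlap for 3 of the 9 genes between NEMO/Jnk1 DKO and WT (2 higher, 1 lower), where 25.5% of all genes did not. Between NEMO/Jnk2 DKO and WT this held for 5 genes (2 higher, 3 lower), where it held for 27.8% of all genes.

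With Jnk1 or Jnk2 alone lost, 0 of the 9 genes were called against WT, as labelled or without the doubted arrays. Leaving out arrays of female pattern gave the 1 call each for Gstt2 and Gstp1 in Jnk2 KO that is described above. Between Jnk1 KO and WT, limma called 0.01% of all genes as labelled and 0.015% without the doubted arrays. In either fit 0 of the 9 genes had an unadjusted p under 0.05, beside 1113 and 1011 of all 19938 genes. The differences of the 9 genes without the doubted arrays ran only between -0.19 (Gstm3) and 0.26 (Gsta4). Between Jnk2 KO and WT, 0.411% of all genes were called as labelled and 1.24% without the doubted arrays. Of the 9 genes, 1 had an unadjusted p under 0.05 in the first fit and 4 in the second, beside 2416 and 2570 of all 19938 genes. In the second fit all 9 differences were below 0, from -0.71 (Gstp1) to -0.06 (Gstm2), with a median of -0.40, and 6 genes lay below WT in every array, where 27.5% of all genes did not overlap. As labelled, with Jnk2 KO replicate 3 included, these were 3 genes (Gstm4, Gstp1 and Gstt2), where 17.0% of all genes did not overlap. Jnk2 KO has 2 arrays without the doubted one.

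Between Jnk1 KO and Jnk2 KO 0 of the 9 genes were called, while limma called 0.13% of all genes as labelled and 0.597% without the doubted arrays. In each fit 3 of the 9 had an unadjusted p under 0.05, beside 1395 and 2152 of all 19938 genes. As labelled, groups did not overlap for 4 of the 9 genes (4 higher in Jnk1 KO, 0 lower), beside 8.01% of all genes. Without the doubted arrays, which leaves 2 arrays in each group, these were 7 (7 higher, 0 lower), beside 35.1%. Gstt2 had the lowest adjusted p (0.67 higher in Jnk1 KO as labelled, SE 0.16, adjusted p = 0.183). Gsta4 stood at 0.90 (SE 0.30, adjusted p = 0.423). Between the 2 double knockouts, NEMO/Jnk1 DKO less NEMO/Jnk2 DKO, 0.105% of all genes were called as labelled and 0.321% without the doubted arrays, and Gstm2 was the 1 gene of the 9 that was called. Gsta3 was 0.37 higher in NEMO/Jnk1 DKO in that comparison (SE 0.10, adjusted p = 0.251). The 2 groups did not overlap for 3 of the 9 genes (Gsta3, Gstm2 and Gstt1, all higher in NEMO/Jnk1 DKO), beside 12.6% of all genes. The difference of the NEMO effects was called for 0 of the 9 genes in either fit, although 1 gene as labelled, and 2 when the doubted arrays were left out, had an unadjusted p under 0.05. Over all genes it was called for 0% as labelled (with 548 genes whose unadjusted p was under 0.05), and leaving out the doubted arrays gave 0.01% (with 1313 such genes). When each gene's 5 groups were ordered by their mean, 0 of 36 neighbouring pairs were called as labelled. Without the doubted arrays 2 were, namely NEMO/Jnk1 DKO over NEMO/Jnk2 DKO for Gstm2, and NEMO/Jnk2 DKO over WT for Gstm3.

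Of 15 further measured glutathione transferases, Hpgds, a sigma-class enzyme that makes prostaglandin D2, was the one called higher in both double knockouts. Hpgds read 5.00, 4.51 and 4.80 in NEMO/Jnk1 DKO livers, 4.44, 4.76 and 4.89 in NEMO/Jnk2 DKO, and 3.97, 4.11 and 3.54 in WT. In the single knockouts it read 4.75, 4.01 and 3.91 (Jnk1 KO) and 3.66, 3.62 and 4.33 (Jnk2 KO), with the doubted array as the high one of each. Some WT and Jnk2 KO values thus lay under the level of 3.69 used as a limit for dim genes, so the sizes are uncertain. The macrophage markers were high in the same arrays, and their part in the Hpgds result was not tested. Without the doubted arrays the Hpgds difference from WT was 0.90 (SE 0.16, adjusted p = 0.00407) for NEMO/Jnk1 DKO livers and 0.82 (SE 0.16, adjusted p = 0.0051) for NEMO/Jnk2 DKO livers. As labelled it was called in neither (adjusted p = 0.128 for NEMO/Jnk1 DKO and 0.086 for NEMO/Jnk2 DKO). The fit without the doubted arrays called 3 of the 15 lower in NEMO/Jnk2 DKO than in WT, where 10.6% of all genes were called. These 3 were Gstm6 of the mu class (-0.64, SE 0.16), Gsto1 of the omega class (-0.60, SE 0.11) and Gstz1 of the zeta class (-0.31, SE 0.09), which acts in tyrosine breakdown. Gstm6 and Gsto1 were called as labelled too (adjusted p = 0.0458 and 0.0412). Between the 2 double knockouts Gstm6 was 0.86 higher in NEMO/Jnk1 DKO (SE 0.16, adjusted p = 0.035 without the doubted arrays and 0.056 as labelled). In NEMO/Jnk1 DKO none of the 15 was called lower than WT.

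Probe sets shared by Gsta1, Gsta2 and 2 provisional gene models carry several symbols and lie outside the 19938 genes. Gsta1 is an alpha-class gene that NRF2 is known to induce in mouse liver. The mean of the 4 probe sets read 10.32, 9.34 and 10.15 in NEMO/Jnk1 DKO, against 10.47, 8.14 and 8.32 in Jnk1 KO. NEMO/Jnk2 DKO livers read 9.48, 9.31 and 9.56, against 6.20, 7.56 and 8.53 in Jnk2 KO, and WT livers 7.45, 8.10 and 7.61. In both double knockouts every array lay above every WT array. Among the 19938 genes, 25.5% (NEMO/Jnk1 DKO) and 27.8% (NEMO/Jnk2 DKO) did not overlap with WT. In the fit over 23410 probe sets without the doubted arrays, all 4 were called for NEMO/Jnk1 DKO less WT, with differences from 2.11 to 2.35 (adjusted p from 0.00102 to 0.00124), and for NEMO/Jnk2 DKO less WT, from 1.59 to 1.89 (adjusted p from 0.00249 to 0.00459). As labelled, none of the 4 was called, with adjusted p-values of at least 0.117 in these comparisons. The 2 probe sets shared by Gstp1 and Gstp2 averaged 9.46, 9.79 and 10.86 in NEMO/Jnk1 DKO and 11.02, 11.04 and 11.26 in WT, which is the direction of Gstp1.

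**Figure D4:**
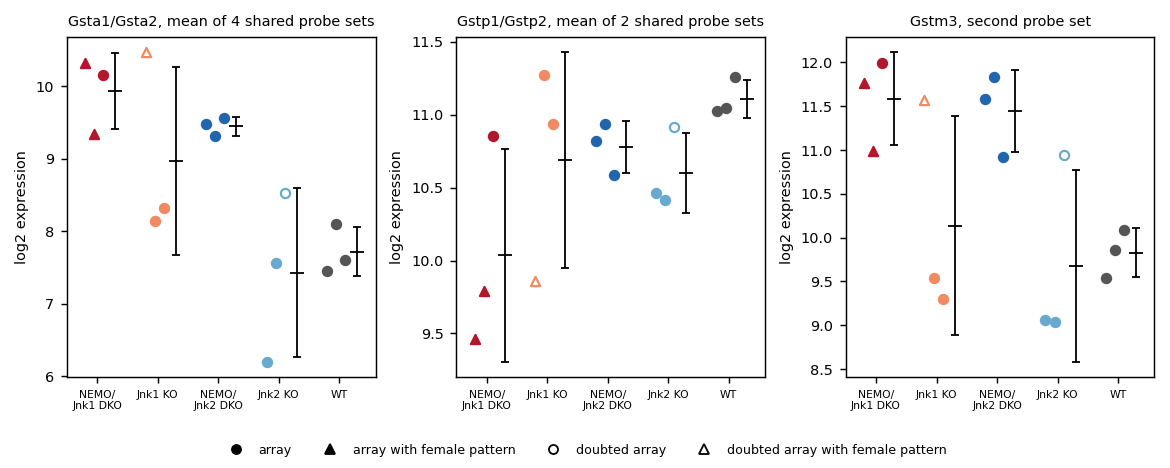
Log2 expression of family probe sets that are not among the 9 genes' own, 1 point per array with the mean and SD of each group (n = 3). Open points are the doubted arrays and triangles the arrays with the female pattern. The Gsta1/Gsta2 probe sets lie at 9.31 to 10.32 in the 6 double knockouts and 7.45 to 8.10 in WT, the Gstp1/Gstp2 probe sets are lowest in the arrays with the female pattern, and the second Gstm3 probe set lies at 10.92 to 12.00 in the double knockouts and 9.54 to 10.09 in WT.

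Nfe2l2, which encodes NRF2, was called higher in both double knockouts without the doubted arrays. It read 8.76, 8.74 and 9.23 in NEMO/Jnk1 DKO, against 9.22, 7.96 and 8.09 in Jnk1 KO. In NEMO/Jnk2 DKO it read 8.55, 8.69 and 8.49, against 7.77, 7.63 and 8.69 in Jnk2 KO, and in WT 7.79, 7.99 and 8.07. As with Gstm3, the double knockouts and the 2 doubted arrays were high. Without the doubted arrays Nfe2l2 was called in all 4 comparisons, at 0.96 for NEMO/Jnk1 DKO less WT (SE 0.13, limma adjusted p = 0.0007), 0.63 for NEMO/Jnk2 DKO less WT (SE 0.13, adjusted p = 0.0071), 0.89 for NEMO/Jnk1 DKO less Jnk1 KO (SE 0.14, adjusted p = 0.003) and 0.88 for NEMO/Jnk2 DKO less Jnk2 KO (SE 0.14, adjusted p = 0.0034). As labelled it was called in none of them. Mafg, a small Maf partner of NRF2, was lower in NEMO/Jnk2 DKO than in WT (-0.54, SE 0.10, adjusted p = 0.0199) and in Jnk2 KO than in WT (-0.60, SE 0.10, adjusted p = 0.0269), both as labelled. Of 14 regulators known to act on these genes (transcription factors and Keap1, the adaptor that marks NRF2 for degradation), Nfe2l2 was the 1 called higher than WT in each double knockout without the doubted arrays. In NEMO/Jnk1 DKO 2 were called lower, Mafg and Cebpa, a hepatocyte differentiation factor (-0.62, SE 0.15). In NEMO/Jnk2 DKO 3 were called lower, Mafg, the xenobiotic receptor gene Nr1i3 (-0.74, SE 0.21) and Stat5b, which transmits the growth hormone signal (-0.58, SE 0.17). As labelled Mafg in NEMO/Jnk2 DKO was the 1 of the 14 called in these comparisons with WT. Of all genes, 7.91% (NEMO/Jnk1 DKO) and 10.6% (NEMO/Jnk2 DKO) were called against WT without the doubted arrays.

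Of 12 known NRF2-induced genes outside the family, Gclc, Gclm and Slc7a11 are also among the synthesis genes below. When the doubted arrays were left out, 5 of the 12 were called higher in NEMO/Jnk1 DKO than in WT and 4 in NEMO/Jnk2 DKO, with 0 lower. Of all genes, 7.91% and 10.6% were called in these 2 comparisons. As labelled limma called 0 of the 12 in either. An unadjusted p under 0.05 was then held by 5 (NEMO/Jnk1 DKO) and 4 (NEMO/Jnk2 DKO), beside 3256 and 3766 of all 19938 genes. In NEMO/Jnk1 DKO the genes called were led by the quinone reductase gene Nqo1 (1.72, SE 0.26), the heme oxygenase gene Hmox1 (1.49, SE 0.23) and the sulfiredoxin gene Srxn1 (0.91, SE 0.10). Next came Ugdh, which makes the UDP-glucuronic acid used in glucuronidation (0.49, SE 0.11). In NEMO/Jnk2 DKO the genes called were led by Hmox1 (1.30, SE 0.23), Srxn1 (0.72, SE 0.10), the thioredoxin reductase gene Txnrd1 (0.47, SE 0.11) and Ugdh (0.45, SE 0.11). Nqo1 read 6.94, 6.25 and 6.19 in NEMO/Jnk1 DKO livers, 5.02, 5.10 and 5.21 in NEMO/Jnk2 DKO, and 4.48, 4.65 and 5.10 in WT. In the single knockouts Nqo1 read 7.44, 4.17 and 5.08 (Jnk1 KO) and 5.35, 4.69 and 4.73 (Jnk2 KO). The arrays with high Nfe2l2 were those with the high macrophage and stellate marker levels given above, and the part of these in the NRF2-related results was not tested. The median of the 12 genes was 0.39 for NEMO/Jnk1 DKO less WT and 0.31 for NEMO/Jnk2 DKO less WT, beside -0.04 over all genes.

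Among 14 genes of glutathione synthesis, recycling and breakdown, Gss, the glutathione synthetase gene, rose in NEMO/Jnk1 DKO against WT (0.68, SE 0.13, adjusted p = 0.0073) and in NEMO/Jnk2 DKO against WT (0.86, SE 0.13, adjusted p = 0.0012) without the doubted arrays, but was called in neither as labelled (adjusted p = 0.246 for NEMO/Jnk1 DKO and 0.109 for NEMO/Jnk2 DKO). Chac2, which degrades glutathione, was lower in NEMO/Jnk2 DKO than in WT in that fit (-0.62, SE 0.11) and as labelled (SE 0.12, adjusted p = 0.0197). Cbs, which makes the cysteine precursor cystathionine, was lower too without the doubted arrays (-0.36, SE 0.08; adjusted p = 0.0672 as labelled). Of 7 export pumps, 2 were called higher in NEMO/Jnk1 DKO than in WT without the doubted arrays, where 7.91% of all genes were called. The 2 were Abcc1 (0.65, SE 0.11) and Abcc4 (0.58, SE 0.14). In NEMO/Jnk2 DKO, where 10.6% of all genes were called, Abcc1 was higher than WT (0.54, SE 0.11) and Abcc6 lower (-0.65, SE 0.14) in that fit. As labelled, Abcc6 was called (adjusted p = 0.0416), and Abcc1 and Abcc4 were not (adjusted p of at least 0.146). Of 11 glutathione peroxidases and glutaredoxins, Gpx7 and Gpx8 were called higher in both double knockouts than in WT, Gpx7 by 0.55 (SE 0.10) for NEMO/Jnk1 DKO and by 0.44 (SE 0.10) for NEMO/Jnk2 DKO. Gpx8 was higher by 0.54 (SE 0.11) for NEMO/Jnk1 DKO and by 0.47 (SE 0.11) for NEMO/Jnk2 DKO. Gpx7 was called as labelled in NEMO/Jnk2 DKO (adjusted p = 0.0379) and not in NEMO/Jnk1 DKO (adjusted p = 0.0701), and Gpx8 in neither (adjusted p = 0.425 for NEMO/Jnk1 DKO and 0.474 for NEMO/Jnk2 DKO). Gpx6 was called lower in NEMO/Jnk2 DKO than in WT in both fits, but its 3.06 to 3.18 in NEMO/Jnk2 DKO lay under the level of 3.69 used as a limit for dim genes, so no size is given.

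Across the 15 arrays Gstm1, Gstm2, Gstm3 and Gsta4 varied together, with r of 0.651 to 0.897 among them. Gstm4 had r of 0.604 with Gstm1, 0.411 with Gstm2, 0.445 with Gstm3 and 0.512 with Gsta4. Gstt2 had r of 0.763 with Gsta4 and 0.716 with Gstm1, but 0.506 with Gstm2 and 0.448 with Gstm3. Pearson's r was 0.897 between Gstm1 and Gstm3, 0.815 between Gstm2 and Gstm3 and 0.807 between Gsta4 and Gstm1. With the mean of each labelled group removed these were 0.882, 0.809 and 0.784. These values include the 2 doubted arrays, each the highest of its group for Gstm1, Gstm2 and Gstm3. They therefore cannot separate differences among mice of 1 group from the doubt over these arrays, and r without them was not computed. Gstp1 had r = -0.669 with Gstm2, but only -0.312 with Gstm3, -0.320 with Gsta4, -0.1995 with Gstm1 and 0.038 with Gstm4. Correlations describe these 15 arrays, which share groups, the doubted arrays and the arrays with the female pattern, and the mu genes may also share probe signal. Outside the 9 genes, the levels most like Gstm3 were those of Ugdh (r = 0.964), the glutathione peroxidase gene Gpx4 (0.941) and Tgfbi (0.935). For Gstp1 they were Nat8f5 (0.949), Cyp7b1 (0.931) and Cyp2d9 (0.920), of which the last 2 are known male-biased genes of mouse liver. For Gstm2 they were Aqp1 (0.939), Ptprs (0.930) and Epdr1 (0.929), for Gstm1 Ppia (0.897), Vtcn1 (0.892) and Nudt18 (0.886), and for Gsta3 Clec2d (0.924), Kdm8 (0.872) and Aldh4a1 (0.857). Gsta4 came closest to Tmem98 (0.870), Gstm4 to Creg1 (0.855), Gstt1 to Gstm7 (0.883) and Gstt2 to Akr1c19 (0.831).

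**Figure D5:**
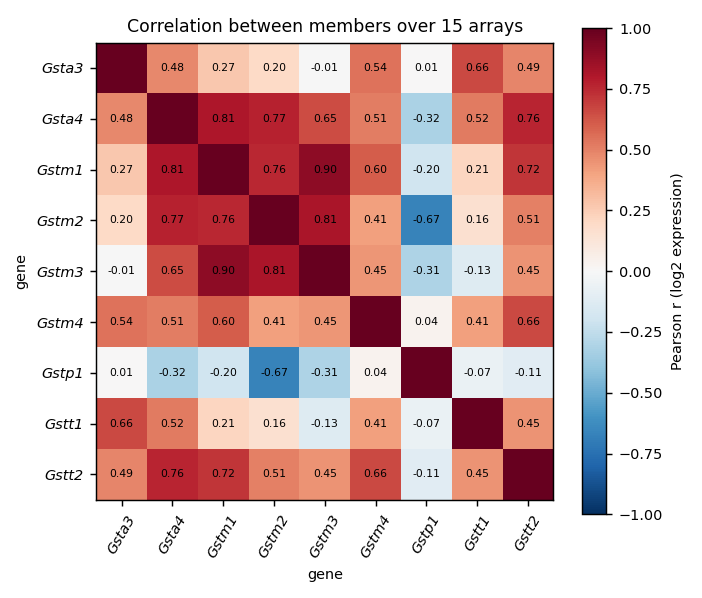
Pearson correlation between each pair of the 9 genes over the 15 arrays, from -1 (blue) to 1 (red). The pairs among Gsta4, Gstm1, Gstm2 and Gstm3 lie between 0.651 and 0.897, and Gstp1 has its lowest value, -0.669, with Gstm2.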

How the data were processed

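Liver RNA of 15 mice (5 groups of 3) was measured on 1 Affymetrix array each, so that the number of arrays limits the precision. The authors deposited log2 values for 35556 probe sets, normalised by RMA per the submitters' processing notes; the base of the logarithm was read from the range of the values. The genome build is not given in the sources used here. The platform annotation gave 21789 probe sets 1 symbol, 1621 several and 12146 none, and the brightest single-symbol probe set stood for each of 19938 genes. Groups were fitted together in limma 3.58.1 (R 4.3.3) with 1 mean each, over 9 comparisons, and p-values were adjusted by Benjamini-Hochberg over all genes. The fit was tested on simulated data. Nothing says that the mice of a group came from separate litters. The 9 genes and all lists were chosen with earlier results of these data known. Named list genes are up to 4 per list and comparison past the threshold, with the largest change. Alternatives left out arrays, added a sex term read from Xist and Y-linked genes, or changed the variance model, weights, normalisation, centring, filter and probe sets.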

Additional observations from a re-analysis of the deposited data

Results flagged for a closer look

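The 4 probe sets shared by Gsta1, Gsta2 and 2 gene models lie outside the genes compared, because they carry several symbols. Their mean stood above every WT array in all arrays of 3 groups. It exceeded the WT mean by 2.22 (log2) in NEMO/Jnk1 DKO, by 1.26 in Jnk1 KO and by 1.73 in NEMO/Jnk2 DKO. In Jnk1 KO the doubted array read 10.47 and the other 2 read 8.14 and 8.32, against 7.45 to 8.10 in WT. Between Jnk1 KO and WT, limma called none of the 4 probe sets in either fit. As labelled, their adjusted p was 0.862. Without the doubted arrays their differences were 0.47 to 0.55 (adjusted p from 0.951 to 0.959). Of all genes compared, 8.66% did not overlap between Jnk1 KO and WT as labelled.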

How the results depend on the processing

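As labelled, limma called 0 of the 9 genes in each comparison. Without the 2 doubted arrays it called 3 between NEMO/Jnk1 DKO and Jnk1 KO, 2 between NEMO/Jnk2 DKO and Jnk2 KO, 3 between NEMO/Jnk1 DKO and WT, 2 between NEMO/Jnk2 DKO and WT, and 1 between NEMO/Jnk1 DKO and NEMO/Jnk2 DKO. Adding the sex term to that, or also dropping the arrays of female pattern (chosen after seeing the data), gave 2 in each of the first 4 and 1 between Jnk2 KO and WT, where dropping those 3 arrays alone also gave 1. With only the arrays compared, 2 were called between NEMO/Jnk1 DKO and WT and 1 between NEMO/Jnk2 DKO and WT, and array weights gave 2 in both. The sex term, the intensity trend with a robust prior, and centring each gave 1 between NEMO/Jnk2 DKO and WT. Leaving out single arrays gave 0 to 1 between NEMO/Jnk1 DKO and Jnk1 KO, 0 to 2 between NEMO/Jnk1 DKO and WT, 0 to 1 between NEMO/Jnk2 DKO and WT, and 0 to 1 between the double knockouts. The array that raised these was Jnk1 KO replicate 1, and for NEMO/Jnk2 DKO against WT also Jnk2 KO replicate 3 or WT replicate 1. The cause was not tested. None of 11 differences of called genes changed sign under 29 alternatives. Some of these, such as the variance model, leave the difference itself unchanged, so its sign could not move there. Sizes did move. Gstp1 ran from -0.94 to -0.09 for NEMO/Jnk1 DKO less Jnk1 KO, and from -1.31 to -0.16 for NEMO/Jnk1 DKO less WT. With the replicate block 0 were called in all 9 comparisons (Gstm3, NEMO/Jnk1 DKO less WT, 1.33, adjusted p = 0.203). Of 30 same-numbered pairs of arrays, 4 had r over 0.1 (-0.395 to 0.304). Differently numbered pairs were not set beside them, so this cannot exclude that replicate numbers pair the arrays.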
